A study of Mus musculus with 12 samples.

Results

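Genes linked to Usher syndrome encode scaffolds, links and receptors that hold a hair bundle together. Here 7 of them were followed through RNA-seq of the neonatal mouse cochlea: *Myo7a*, *Ush1c*, *Ush1g*, *Clrn1*, *Pdzd7*, *Whrn* and *Adgrv1*. They were named by symbol from the 28686 gene symbols of the deposited counts. The rule that names them used no measured values, but it was set with earlier results of these data known. All 7 were among the 18459 genes with enough reads to test. The libraries came from the cochlear sensory epithelium of mice at P6 (postnatal day 6), with 6 mutants and 6 controls. The mutants were *Sox2*CreER/+*Jag1*fl/fl, in which tamoxifen given at P0 and P1 activates a CreER recombinase made from 1 *Sox2* allele in supporting cells, so that the floxed part of *Jag1*, a Notch ligand, is removed. The controls were *Sox2*+/+ littermates that carried floxed *Jag1* on 1 or both alleles, received the same tamoxifen and had no CreER allele, so *Sox2* gene dose differed between the genotypes along with *Jag1*. The strain is labelled as a mixture of C57BL/6 and 129SV, whereas the paper lists the CreER line on C57BL/6J and floxed *Jag1* on FVB/n. Whole tissue was sequenced, so fewer cells of a type and less RNA per cell cannot be told apart.

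Hair cells turn sound into current with a bundle of actin-filled stereocilia that are joined by fine extracellular links. In the USH1 complex, myosin VIIa (*Myo7a*) is a motor, while harmonin (*Ush1c*) and SANS (*Ush1g*) are scaffolds that help to anchor the cadherin-23 end of the tip link, which pulls on the transduction channel. In the ankle link complex, the very large adhesion receptor ADGRV1 spans the gap between the bases of growing stereocilia, and the PDZ-domain proteins whirlin (*Whrn*) and PDZD7 hold it inside the cell. Clarin-1 (*Clrn1*) is a small membrane protein whose loss causes USH3. These genes are known for their use in hair cells, whereas the CreER here acts in supporting cells, the neighbours that cradle them.

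Expression is given as CPM, the reads of a gene scaled to the total reads counted on genes in the same library, with TMM factors. To set genes beside each other, CPM was divided by the exon length of the gene in kb. Libraries held 28498549 to 36134983 counted reads. The check of the genotype held in all 12 libraries, since *Jag1* measured 102 ± 14.7 CPM in controls and fell to 36.4 ± 6.56 CPM with the deletion (mean ± SD, n = 6 each) with no overlap (log2 fold change -1.48 ± 0.13 SE, edgeR adjusted p = 0.000258). *Sox2* measured 33.9 ± 6.49 CPM in controls and 24.8 ± 3.60 CPM in mutants (log2 fold change -0.45 ± 0.13, edgeR adjusted p = 0.143). Nerve marker levels also differed by genotype. The mean log2 CPM of 12 neuron markers ran from 1.37 to 3.46 in controls and from 2.51 to 6.12 in mutants (exact permutation p = 0.00866, adjusted p = 0.0144 over 5 marker lists), and that of 12 Schwann cell markers from 3.88 to 5.90 and from 5.75 to 7.83 (exact permutation p = 0.00649, adjusted p = 0.0144). Of the neuron markers 11 of 12, and of the Schwann cell markers 12 of 12, were higher in mutants at an unadjusted edgeR p under 0.05. Over all genes, 10.6% had such a p in either direction. Among the 11, *Prph* rested on 1 mutant at 155 CPM, as its median was 0.888 CPM in mutants and 0.927 in controls. The neuron marker outside the 11, *Syt1*, was lower in mutants (log2 fold change -0.21). In either list 0 were called, and none was at 0 in any library. Supporting cell markers (12 genes) were lower by 0.14 on this scale and macrophage markers (10 genes) by 0.24 (exact permutation, adjusted p = 0.0144 and 0.0281). Of the supporting cell markers 1 was called, *Lfng* (log2 fold change -0.45, edgeR adjusted p = 0.0204), and 2 of the 12 had positive log2 fold changes. Of the macrophage markers 0 were called.

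*Ush1c* and *Clrn1* are the members on which the comparison of genotypes turned, and the bases before their start sites are shown because both genes were read against their neighbours and against known motifs of Notch and hair cell factors. All 7 members lie on the minus strand of GRCm38. *Ush1c* spans 43.2 kb on chromosome 7 (46195350 to 46238503) with 28 exon blocks, and *Clrn1* spans 41.3 kb on chromosome 3 (58844028 to 58885340) with 4. The runs below are the 250 bases upstream of the RefSeq start on GRCm38.p6, written 5′ to 3′ on the minus strand, at chr7:46238491-46238740 for *Ush1c* and chr3:58885213-58885462 for *Clrn1*. Capitals mark a match to CAGNTG, the E-box read by basic helix-loop-helix activators such as ATOH1, on either strand.
Ush1c: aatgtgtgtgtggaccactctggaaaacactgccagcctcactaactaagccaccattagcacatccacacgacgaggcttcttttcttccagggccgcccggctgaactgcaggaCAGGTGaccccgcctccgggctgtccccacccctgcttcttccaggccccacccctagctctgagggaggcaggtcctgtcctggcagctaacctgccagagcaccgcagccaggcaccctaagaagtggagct
Clrn1: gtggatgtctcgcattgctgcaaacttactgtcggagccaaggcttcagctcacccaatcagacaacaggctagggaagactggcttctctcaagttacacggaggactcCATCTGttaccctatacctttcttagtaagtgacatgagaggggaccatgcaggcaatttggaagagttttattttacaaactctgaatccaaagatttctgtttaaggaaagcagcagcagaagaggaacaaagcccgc
Each run holds 1 such E-box, at 134 bases before the RefSeq start of *Ush1c* and 140 bases before that of *Clrn1*. The gene spans above are GENCODE models, whose upper ends (46238503 for *Ush1c*, 58885340 for *Clrn1*) fall inside these runs. Part of each run therefore lies within the GENCODE gene. The *Ush1c* window of 300 bases that runs 50 bases past the start holds a second. RefSeq windows of 300 bases were matched for 6 of the 7 members (7 windows, 2 of them for *Myo7a*), and 6 of those 7 hold CAGNTG, as do 51.4% of all 32851 windows. TGGGAA, the letters bound by the Notch mediator RBPJ, was found in 1 member window, that of *Myo7a*, and in 25.6% of all windows. CACGTG, read by HES and HEY repressors, was found in 0 of 7 and in 7.2% of all windows. All motifs were searched on both strands, and none of the 3 letter patterns contains another.

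*Ush1c* was by far the most abundant member per exon length. In controls it measured 16.6 ± 1.93 CPM per kb, against 2.62 ± 0.300 for *Whrn*, 2.36 ± 0.196 for *Pdzd7*, 1.92 ± 0.135 for *Myo7a*, 1.15 ± 0.155 for *Clrn1*, 0.228 ± 0.0197 for *Adgrv1* and 0.212 ± 0.0348 for *Ush1g*. As the mean of the ratios in the 12 libraries of both genotypes, reads of *Ush1c* per kb were 5.64 times those of the next member, *Whrn*. They were 75.3 times those of *Ush1g*, which encodes SANS, the partner of harmonin at the upper end of the tip link. Most of this order held in every library, but *Whrn* exceeded *Pdzd7* in 5 of 6 controls and 5 of 6 mutants, and *Adgrv1* exceeded *Ush1g* in 4 of 6 and 4 of 6, so neither of these pairs of neighbours was separated beyond its spread. *Adgrv1* has the longest exon sequence, 24.88 kb over 95 blocks in a gene of 538.1 kb on chromosome 13 (81095068 to 81633154), and its level per kb is low although its count per library (103 to 246) resembled that of *Clrn1* (104 to 255). *Ush1g* (chromosome 11, 115315192 to 115322041, with 3 exon blocks) was read 12 to 30 times per library. Its values therefore carry the largest counting error.

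**Figure D1:**
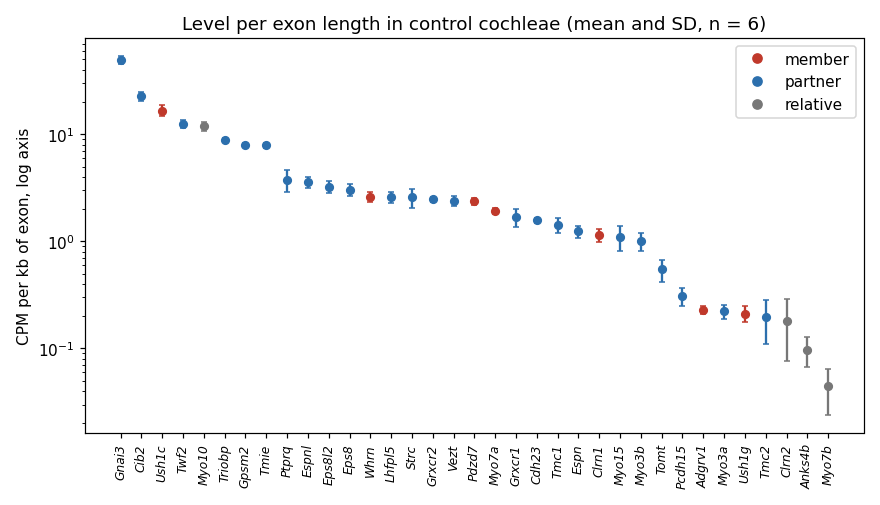
Level per exon length (CPM per kb of exon, log axis) of the members, their 24 partner genes and the 4 tested relatives in the 6 control libraries, ordered from high to low, with points at the mean and bars for the SD. *Ush1c* stands at 16.6 CPM per kb near the top, while *Adgrv1* and *Ush1g* stand at 0.228 and 0.212 near the bottom.

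*Ush1c*, the harmonin gene, measured 62.9, 58.1, 75.0, 54.1, 68.4 and 65.6 CPM in controls 1 to 6, and 45.3, 49.5, 44.8, 56.2, 56.2 and 44.5 CPM in mutants 1 to 6. All 6 mutants lay under the control median of 64.2 CPM and 4 of them under the lowest control. Mutants 4 and 5 reached into the control range and lay above control 4 alone. The means were 64.0 ± 7.43 and 49.4 ± 5.58 CPM, a fold of 0.772 (95% interval 0.684 to 0.872, log2 fold change -0.37 ± 0.09). Its edgeR p was 0.000869 before adjustment, and over all genes the edgeR adjusted p was 0.0903, so *Ush1c* did not pass the threshold of 0.05. Over the 924 ways to split the mice 6 against 6, the exact permutation p (two-sided, on log2(CPM + 0.1)) was 0.00866, where the smallest possible is 0.00216.

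*Clrn1*, the clarin-1 gene, had its higher values in mutants. It measured 5.06, 4.34, 3.58, 4.64, 3.96 and 5.05 CPM in controls 1 to 6, and 5.70, 5.76, 5.51, 7.45, 4.43 and 6.44 CPM in mutants 1 to 6. Every mutant but number 5 lay above the highest control, and mutant 5 lay just under the control median of 4.49 CPM. The means were 4.44 ± 0.598 and 5.88 ± 1.01 CPM, a fold of 1.32 (95% interval 1.11 to 1.59, log2 fold change 0.41 ± 0.13). The edgeR adjusted p was 0.201 (0.00823 before adjustment) and the exact permutation p was 0.0152, so *Clrn1* did not pass the threshold over all genes either.

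The members did not pass as a group. With edgeR, 0 of 7 were called at an adjusted p under 0.05, where 35 of all genes tested (20 higher and 15 lower in mutants) were called, or 0.190%. At an unadjusted p under 0.05 there were 2 of 7, *Ush1c* and *Clrn1*, beside 10.6% of all genes. DESeq2 called 1 of 7, *Ush1c* (log2 fold change -0.38 ± 0.10, DESeq2 adjusted p = 0.00603), beside 3.35% of all genes, and *Clrn1* had a DESeq2 adjusted p of 0.0910. Groups that do not overlap were found for 0 of 7 members and for 0.997% of all genes. The median log2 fold change of the 7 was -0.02, against 0.00 for all genes tested. Leaving out mutant 5, which lay nearest to the controls in *Clrn1* and, with mutant 4, in *Ush1c*, brought the edgeR adjusted p of *Ush1c* to 0.0359 and that of *Clrn1* to 0.0780, in a fit that called 356 of all genes. Leaving out control 3 brought them to 0.205 and 0.386. Over all 12 such fits, 1 called a member.

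**Figure D2:**
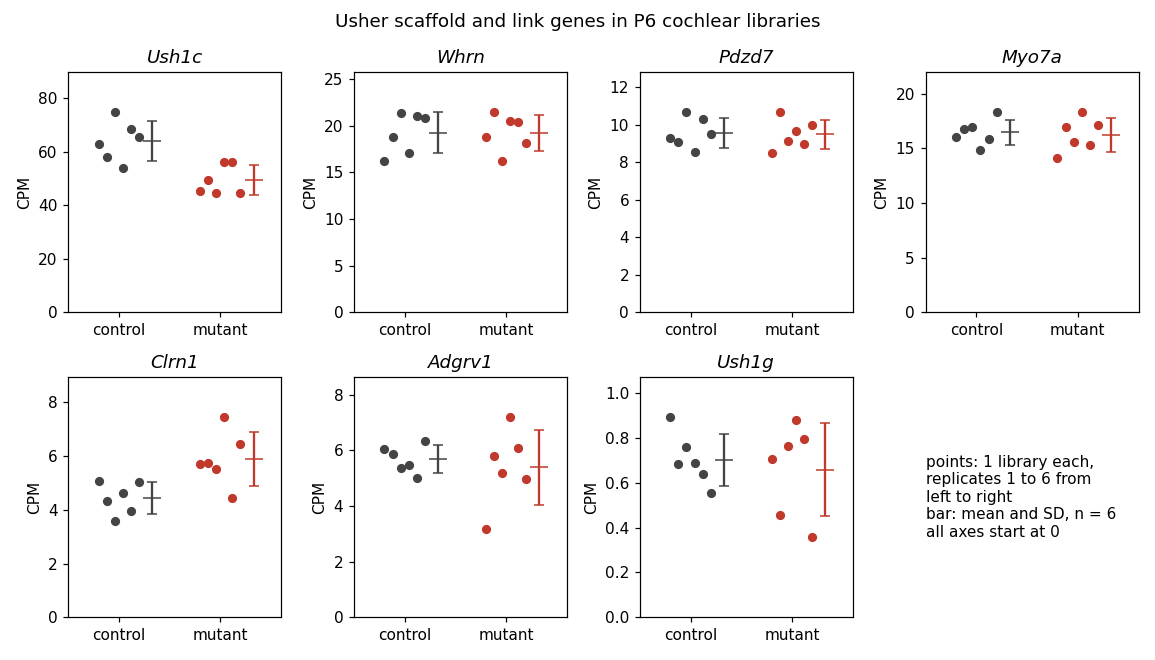
CPM of each member in the 6 controls and 6 mutants, with every axis starting at 0, 1 point per library and a bar for the mean and SD beside each group. *Ush1c* mutants lay between 44.5 and 56.2 CPM against 54.1 to 75.0 in controls, *Clrn1* mutants between 4.43 and 7.45 CPM against 3.58 to 5.06, and the other 5 members overlapped widely.

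The motor that works with harmonin had nearly equal medians in both genotypes. *Myo7a* (chromosome 7, 98051060 to 98119524) ran from 14.9 to 18.3 CPM in controls, with a median of 16.4, and from 14.1 to 18.3 CPM in mutants, with a median of 16.2. The fold was 0.984 with a 95% interval of 0.886 to 1.09 (edgeR adjusted p = 0.968). *Ush1g*, the SANS scaffold, ran from 0.552 to 0.891 CPM in controls (median 0.685) and from 0.356 to 0.877 CPM in mutants (median 0.734). At 12 to 30 reads per library the interval of its fold was wide, at 0.689 to 1.29 around 0.944. It includes both 1 and the fold of 0.772 fitted for *Ush1c*, so a difference of that size cannot be told from none here. With the whole hair cell marker list as a covariate its log2 fold change moved from -0.08 ± 0.23 to -0.47 ± 0.27 (edgeR adjusted p = 0.689), and with the list lacking *Calb2* and *Pvalb* it was -0.06 ± 0.21.

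Among the ankle link genes, the means of both PDZ scaffolds differed by less than their spread. *Whrn* (chromosome 4, 63414910 to 63495991) measured 19.2 ± 2.20 CPM in controls (16.3 to 21.4) and 19.2 ± 1.93 CPM in mutants (16.2 to 21.5), a fold of 0.9997 with an interval of 0.884 to 1.13. *Pdzd7* (chromosome 19, 45026906 to 45045717) measured 9.57 ± 0.796 CPM (8.54 to 10.7) and 9.49 ± 0.785 CPM (8.49 to 10.7), a fold of 0.992 with an interval of 0.885 to 1.11. The edgeR adjusted p was 0.9996 for *Whrn* and 0.989 for *Pdzd7*. The intervals of *Whrn*, *Pdzd7* and *Myo7a* do not reach the fold of 0.772 fitted for *Ush1c*. *Pdzd7* shares 206 bases of exon with *Lzts2* on the opposite strand, and as the strand setting of the counting is not given in the sources used here, some of its reads may belong to that gene. *Ush1c* likewise shares 120 bases of exon with *Gm9860* on the opposite strand, a gene that is not among the symbols counted.

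*Adgrv1*, the ankle link receptor, had its 2 extreme values in mutants. It ran from 5.001 to 6.33 CPM in controls with a median of 5.67, and from 3.16 in mutant 1 to 7.19 in mutant 4 with a median of 5.48. The coefficient of variation was 8.62% in controls and 24.9% in mutants. Without mutant 1 it was 14.95% in the other mutants. *Ush1g* had 16.4% in controls and 31.3% in mutants. The fold was 0.950 with an interval of 0.768 to 1.17 (edgeR adjusted p = 0.941). Without mutant 1, the log2 fold change moved from -0.07 ± 0.16 to 0.04 ± 0.11.

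Setting *Ush1c* against the other members within the same library removes any effect of library scaling. The count ratio of *Ush1c* to *Whrn* ran from 3.10 to 3.87 in controls and from 2.31 to 2.77 in mutants. The ratio of *Ush1c* to *Pdzd7* ran from 6.34 to 7.01 in controls and from 4.45 to 6.27 in mutants. In both cases every mutant lay under every control. Against *Myo7a*, the ratio ran from 3.46 to 4.42 in controls and from 2.61 to 3.69 in mutants, with 5 of 6 mutants under the lowest control. The ratio of *Ush1c* to *Clrn1*, which combines the 2 opposite differences, had a median of 13.2 in controls and 8.03 in mutants, and mutant 5 alone reached the control range. Against *Adgrv1* the ratio ran from 9.86 to 14.0 in controls and from 7.82 to 14.3 in mutants, and against *Ush1g* from 70.6 to 119 and from 58.7 to 125, so in both cases 1 mutant lay above every control. These ratios were chosen after the values were seen, 11 of them were computed, and no test was made of them. As a share of the summed level per kb of the 7 members, *Ush1c* held 66.1% ± 1.69 in controls and 59.3% ± 2.38 in mutants, and *Clrn1* held 4.64% ± 0.881 and 7.07% ± 1.14. A lower share of *Ush1c* raises the others. *Whrn* held 10.4% and 12.1%, *Pdzd7* 9.40% and 10.9%, and *Myo7a* 7.68% and 8.76%, although their own levels hardly differed. Part of the higher *Clrn1* share therefore reflects *Ush1c*.

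**Figure D3:**
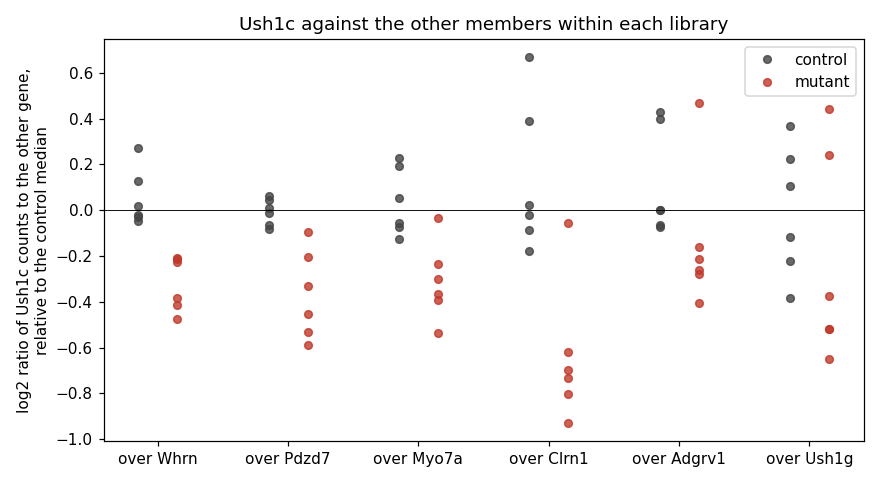
Log2 ratio of *Ush1c* counts to the counts of each other member in the same library, relative to the control median of that ratio (line at 0), with 1 point per library. All mutants lie below all controls for the ratios to *Whrn* and *Pdzd7*, while at least 1 mutant overlaps the controls for the other 4.

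Hair cell content was read from 20 markers that include no member. Their mean log2 CPM was higher in mutants by 0.10 (controls 3.29 to 3.37, mutants 3.28 to 3.55, exact permutation p = 0.0281, adjusted p = 0.0281). The largest log2 fold changes of the 20 were those of *Calb2* (1.52) and *Pvalb* (1.42), 2 markers that spiral ganglion neurons also make. They were left out after the data were seen, a choice that by itself lowers the difference. Without them the difference was -0.03, with 3.16 to 3.30 in controls and 2.97 to 3.49 in mutants (exact permutation p = 0.680). The source of the *Calb2* and *Pvalb* reads was not tested. None of the 20 was at 0 in any library. The log2 fold change of *Ush1c* was -0.47 ± 0.11 with the whole hair cell list as a covariate and -0.35 ± 0.08 with the list lacking *Calb2* and *Pvalb* (edgeR adjusted p = 0.113 and 0.0725). Among the mutants, the pair with the highest level of the shortened list, numbers 4 and 5, were also the pair with the most *Ush1c*.

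Among the mutants, the extremes of *Clrn1* fell on those of the neuron markers but not of the Schwann cell markers. Mutant 4 had both the most *Clrn1* (7.45 CPM) and the highest neuron marker level (6.12), and mutant 5 had both the least *Clrn1* (4.43 CPM) and the lowest neuron marker level of the mutants (2.51), within the control range of 1.37 to 3.46. Mutant 4 had the lowest Schwann cell marker level of the mutants (5.75), and mutant 1, with 5.70 CPM of *Clrn1*, had the highest (7.83). With the neuron and Schwann cell marker levels as covariates, the log2 fold change of *Clrn1* was 0.19 ± 0.18 (edgeR adjusted p = 1), against 0.41 ± 0.13 without them. For *Ush1c* it was -0.33 ± 0.15 in the same fit (edgeR adjusted p = 1). That fit called 1 of the 18459 genes tested, and *Jag1* itself did not pass in it. Both marker levels differed between the genotypes, so the fit cannot tell nerve content from genotype. The part of nerve content in either difference was not tested beyond these fits.

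**Figure D4:**
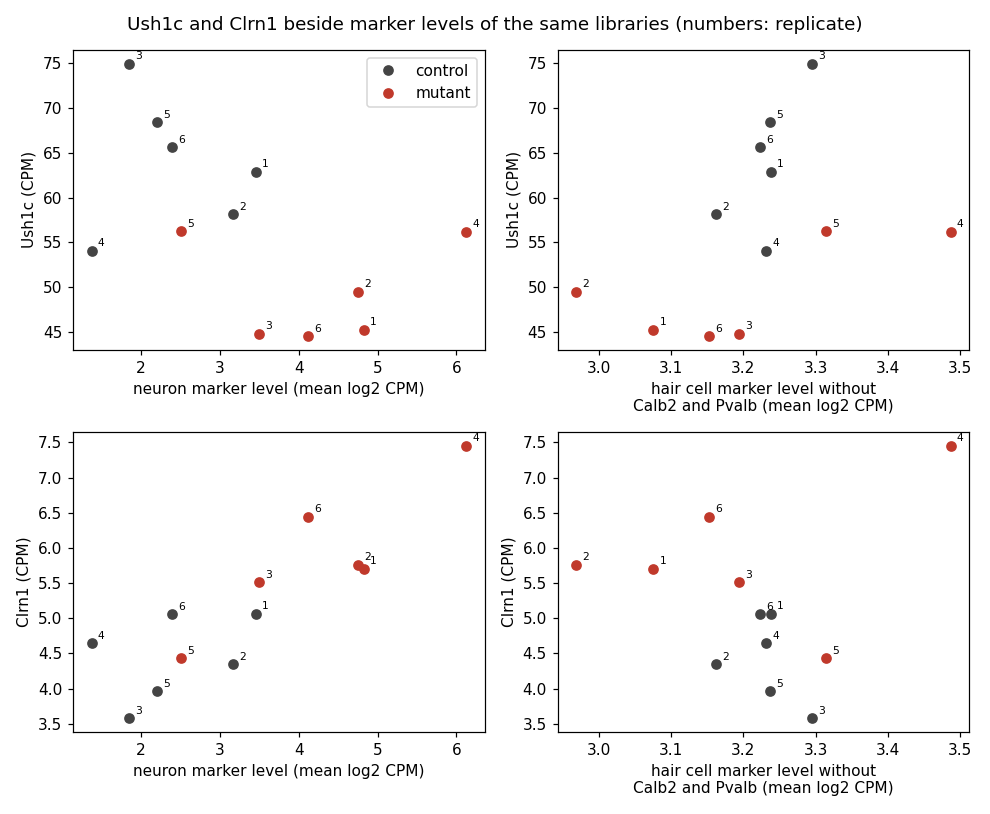
CPM of *Ush1c* (top) and *Clrn1* (bottom) in each library against the mean log2 CPM of 12 neuron markers (left) and of 18 hair cell markers (right), with replicate numbers beside the points. Mutant 4, at a neuron marker level of 6.12, has the most *Clrn1*, and mutant 5, at 2.51, lies among the controls.

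The wider machinery of the bundle was read from a list of 24 partners, which hold the other parts of the links, the transduction channel, the tip complex and the actin core. All 24 were tested, 0 were called, and their median log2 fold change was 0.0039, with 12 positive and 12 negative and a range from -0.27 to 0.24. At an unadjusted p under 0.05 there was 1, *Triobp*, which bundles actin in the rootlets that anchor stereocilia. *Triobp* ran from 103 to 116 CPM in controls and from 88.1 to 103 CPM in mutants, with no overlap (log2 fold change -0.14 ± 0.05, edgeR adjusted p = 0.298). Over all genes, 10.6% had such a p and 0.997% such groups. With the neuron and Schwann cell markers as covariates it was -0.03 ± 0.09. The partners with the highest level per kb in controls were *Gnai3* (49.5 CPM per kb), a G protein of the bundle's edge and tips, *Cib2* (22.6), a calcium-binding partner of the transduction channel, and *Twf2* (12.6), an actin regulator at stereocilia tips. Their log2 fold changes were 0.10 ± 0.08, -0.003 ± 0.10 and -0.13 ± 0.08, and in the fit with the nerve markers that of *Twf2* was -0.01 ± 0.13.

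A further 2 partners touch the members directly and were picked out after their values were seen. *Cdh23*, whose protein is the upper part of the tip link that harmonin and SANS hold, measured 26.6 ± 1.44 CPM in controls and 27.5 ± 8.64 CPM in mutants. Its 6 controls lay between 24.7 and 28.6 CPM, whereas mutant 1 had 13.8 and mutant 3 had 41.1. *Pcdh15*, the lower part of the tip link, was also lowest in mutant 1, with 4.08 CPM beside 5.52 to 9.52 in controls and up to 10.2 in mutants. Their edgeR adjusted p was 0.969 and 0.955. Mutant 1, the library with the least *Adgrv1*, and the genes named for it were also picked out after the values were seen. It had the lowest CPM of the 12 libraries in 8 of the 24 partners, among them both tip link cadherins, *Ptprq* (12.9), *Tmc1* (6.56) and *Eps8* (25.9). Mutant 2 and control 4 were lowest in 4 partners each. The share of all genes tested in which mutant 1 was lowest is not given here. Mutant 1 had the highest CPM of the 12 in *Cib2* (39.5) and *Espn* (13.8). Mutant 1 was also lowest in the mean log2 CPM of 6 outer hair cell markers, at 2.61, where controls ran from 2.85 to 3.22 and mutants up to 3.54 (exact permutation p = 0.387 between genotypes). On 5 inner hair cell markers it was not low, at 4.57 beside 3.96 to 4.25 in controls. Without *Calb2* that list gave 3.94 in mutant 1, within the 3.83 to 4.15 of controls. On the 18 hair cell markers left without *Calb2* and *Pvalb*, mutant 2 was lowest at 2.97, and mutant 1 had 3.07.

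The closest relatives of the members were hardly read. Of 7, 3 (*Clrn3*, *Cdhr2* and *Cdhr5*) had too few reads to test, and 0 of the 4 tested were called. *Myo10*, a myosin of filopodia, was the exception in level with 11.9 CPM per kb in controls, while *Clrn2* measured 0.182 and *Anks4b*, the relative of *Ush1g* in the intestinal brush border, 0.0971. Their log2 fold changes were -0.11 ± 0.07, 0.10 ± 0.50 and 0.15 ± 0.27, with a median of -0.0048 over the 4.

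**Figure D5:**
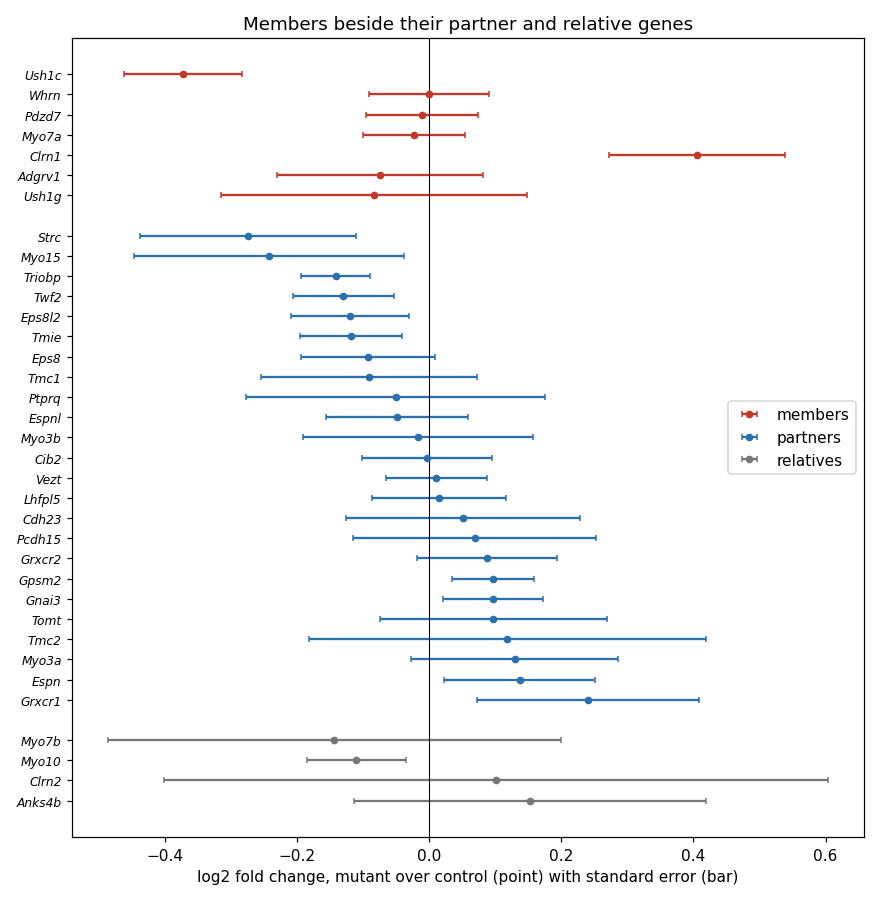
Log2 fold change of mutants over controls with its standard error for the 7 members, the 24 partners and the 4 tested relatives, each group ordered downwards (members by level per kb, the others by fold change). *Ush1c* at -0.37 and *Clrn1* at 0.41 lie outside the range of the partners, which runs from -0.27 to 0.24.

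The neighbours of *Ush1c* on chromosome 7 were read beside it. *Otog*, which encodes a protein of the tectorial membrane and starts 2.48 kb away on the opposite strand, ran from 207 to 272 CPM in controls and from 149 to 265 CPM in mutants (log2 fold change -0.32 ± 0.11, edgeR adjusted p = 0.260, 0.0132 before adjustment). *Abcc8*, 15.32 kb on the other side, had 15 to 100 reads per library and did not overlap between groups, as was so for 0.997% of all genes. It measured 0.968 ± 0.339 CPM in controls and 2.06 ± 0.672 CPM in mutants (log2 fold change 1.08 ± 0.27, edgeR adjusted p = 0.0954). The genes on either side of *Ush1c* therefore had fold changes of opposite sign. Of the 8 neighbours of the other members that could be tested, 1 had an unadjusted p under 0.05, beside 10.6% of all genes. It was *Capn5* beside *Myo7a* (log2 fold change 0.37 ± 0.12, edgeR adjusted p = 0.183).

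The genes whose level followed each member most closely were sought by Pearson's r of log2 CPM over the 12 libraries, after the mean of each genotype was subtracted. Since r was searched over all genes tested in few libraries that share depth and tissue makeup, it is a description and carries no p. For *Ush1c* they were *AU022754* (r = 0.91), *A3galt2* (0.90) and *B430010I23Rik* (0.90), and for *Clrn1* they were *Kncn* (0.88), *Zcchc16* (0.85) and *Gm11240* (0.85). *Kncn* encodes kinocilin, a hair cell protein, and its own log2 fold change was -0.14. For *Myo7a* they were *Nbeal2* (0.95), *Gm26550* (0.94) and *Fat3* (0.92), and for *Ush1g* they were *Pih1d2* (0.90), *1700092K14Rik* (0.86) and *Psmb9* (0.84). For the ankle link genes they were *RP23-265F20.14* (0.90), *Atxn7l2* (0.88) and *Ube4bos3* (0.88) with *Pdzd7*, *4933439C10Rik* (0.96), *AI480526* (0.94) and *Arhgef1* (0.94) with *Whrn*, and *6030458C11Rik* (0.96), *Ikzf2* (0.95) and *St8sia2* (0.95) with *Adgrv1*. No member was among the 3 closest genes of another. Between members, r ran from -0.41 for *Ush1g* with *Pdzd7* to 0.72 for *Ush1c* with *Whrn*, and *Clrn1* had a negative r with both *Ush1c* (-0.30) and *Whrn* (-0.27).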

How the data were processed

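RNA-seq of 12 cochlear libraries (6 mutant, 6 control) was analysed. Raw counts, 1 column per library, were deposited by the authors under gene symbols, without normalization. The submitters' processing notes name Trimmomatic 0.32, STAR 2.4.2a, HTSeq 0.9.1, DESeq2 1.10.1 and GRCm38.p4, while the annotation and strand setting are not given in the sources used here. A deposited table of the authors' own fold changes and p-values was not used. RNA integrity numbers were 9.7 to 10.

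Genes averaging 5 or more reads per library were tested by the quasi-likelihood test of edgeR 4.0.16 (R 4.3.3, TMM, robust, no covariate), with Benjamini-Hochberg adjustment over 18459 genes and a threshold of 0.05. DESeq2 1.42.0 and limma 3.58.1 were alternatives. Standard errors follow each log2 fold change, and 95% intervals are normal intervals from them. Marker levels are means of log2 CPM (prior count 2), compared by exact two-sided permutation (scipy 1.17.1). The edgeR and DESeq2 fits were tested on simulated data.

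Gene models and lengths came from GENCODE M21 on GRCm38 (94.5% of symbols matched), and promoters from RefSeq on GRCm38.p6, which had none matched for *Ush1g*. Named genes were the members, every partner or relative with an unadjusted p under 0.05, the 3 of each list with the highest level per kb, the 3 closest genes of each member, *Jag1* and *Sox2*. Where another gene was picked by its values, the text says so. A gene of the partner list is not reported here. The members and lists were chosen with earlier results of these data known. Gene neighbours, promoters and count ratios were added after the data were examined. The mice are taken as separate animals. The paper describes the controls as littermates of the mutants, but the litter of each library is not given in the sources used here. Litter therefore entered no fit, and p-values measure the spread between these samples alone. Libraries of a genotype differed by more than counting error in all 30 pairs (chi-square per degree of freedom 13.4 to 70.6), so none was counted as a duplicate.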

Additional observations from a re-analysis of the deposited data

Results flagged for a closer look

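Of 38 groups of 6 libraries examined for a lone extreme value, 1 stood out: *Triobp* in mutant 2, at 88.1 CPM, lay apart from the other 5 mutants, which ran from 100 to 103 CPM, and the gap was 0.834 of the range of the group. Chance gives such a value in about 5% of groups. *Triobp* did not overlap between genotypes with that library or without it.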

How the results depend on the processing

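Depth limits *Ush1g* most, with 12 to 30 reads per library. The number of genes called was 35, against 619 with DESeq2, 19 with limma-voom, 57 with no filter, 131 with the replicate block, 1 with neuron and Schwann cell markers as covariates, 23 with *Xist* as a covariate, 66 with the hair cell list lacking *Calb2* and *Pvalb* (an alternative added after the data were seen), and 14 to 356 when 1 library was left out, the highest without mutant 5 (leaving out any library other than control 1 or mutant 3 moved the count by over 1.5 times). The cause was not tested. The number of members called was 0, against 1 with DESeq2 and 0 to 1 with 1 library left out, and it was *Ush1c* each time, with a log2 fold change of -0.3761 with DESeq2, and -0.4171 to -0.323 with 1 library left out, where the edgeR adjusted p ran from 0.0359 (without mutant 5) to 0.205 (without control 3). *Clrn1* stayed positive and uncalled in all 25 alternatives, from 0.1913 to 0.4751.

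Log2 fold changes close to 0 changed sign: *Myo7a* (-0.061 to 0.0145 with 1 library left out), *Ush1g* (-0.1806 to 0.0418, and -0.4703 with hair cell markers as a covariate), *Pdzd7* (-0.047 to 0.0232, and 0.0205 with hair cell markers as a covariate), *Adgrv1* (-0.1736 to 0.0396, and 0.0403 with neuron and Schwann cell markers) and *Whrn* (-0.0514 to 0.045, 0.0042 at a mean count of at least 20, 0.0022 with filterByExpr, 0.0017 with the replicate block, 0.0197 with hair cell markers and 0.0028 with the shortened list). *Cib2* did so as well, at 0.0015 with a mean count of at least 20, 0.1073 with neuron and Schwann cell markers and 0.0064 with the shortened list, and -0.0689 to 0.0603 with 1 library left out. The hair cell level difference was 0.0673 to 0.1213 with 1 library left out and -0.0325 without *Calb2* and *Pvalb*, and the macrophage difference was -0.2718 to -0.1904. The hair cell difference lost its call without any 1 of controls 2 and 6 and mutants 1, 4, 5 and 6, and the macrophage difference without any 1 of controls 2 and 6 and mutant 4. *Jag1* was -1.4134 with neuron and Schwann cell markers (edgeR adjusted p = 0.0767), and *Sox2* passed with DESeq2 and with the block (adjusted p = 0.0349 and 0.0467).

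The replicate numbers are not known to pair the mice. The deviations of mice with the same number correlated between -0.19 and 0.27, and the best match was the same number in 4 of 12 searches. With the block, *Ush1c* was -0.3726 and *Clrn1* 0.3994 (edgeR adjusted p = 0.164 and 0.215), and no member was called.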
